A study of Mus musculus with 13 samples.

Results

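The glycolysis genes described here are 10 genes of glucose uptake, its breakdown to pyruvate and the step to lactate: Slc2a1, Hk2, Pfkp, Pfkfb3, Aldoa, Gapdh, Pgk1, Eno1, Pkm and Ldha. They were taken by gene symbol from the 20270 protein-coding genes of the deposited tables, all 10 were found, and all 10 were among the 15315 genes that passed the filter on low counts. RNA of the lower right lung lobe was sequenced from 13 mice in 3 groups. Control mice were wildtype and had received saline in place of bleomycin (n = 4, mice 3, 21, 24 and 26). WT bleomycin mice were wildtype and were examined 14 days after bleomycin, given once through the oropharynx at 1 U per kg (n = 5, mice 4, 2, 5, 4-B2 and 7). Mice labelled CB1R KO bleomycin had the same dose and day and carried a germline deletion of Cnr1, which encodes the cannabinoid receptor CB1R, in every cell type (n = 4, mice 8, 9, 10 and 11). Per the study's methods, the purchased mice were 13-week-old males of the C57BL/6J strain and the knockout mice had that background, while the age and sex of the knockout mice are not given in the sources used here. No group labelled CB1R KO without bleomycin was analysed here, so the effect of genotype alone cannot be told apart from its effect on the response to bleomycin.

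Glycolysis splits glucose into pyruvate in the cytosol and yields ATP without oxygen. Its early steps spend ATP to trap and phosphorylate the sugar, its later steps return ATP, and lactate dehydrogenase then turns pyruvate into lactate, which regenerates NAD+. In lung, activated macrophages and myofibroblasts are known for high glycolytic flux, and several of the genes are classical targets of the hypoxia-inducible factors.

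Of the 13 libraries, 12 held between 14615904 and 16662580 estimated counts, and CB1R KO mouse 11 held 3.33 times the median of the others. Levels within a gene are given as CPM, read counts scaled to the size of the library with TMM factors, and levels between genes as TPM, which are also scaled for transcript length. Cnr1 itself, the targeted gene, was at 1.62 to 4.10 CPM in control, 3.46 to 6.97 CPM in WT bleomycin and 2.47 to 5.63 CPM in the libraries labelled CB1R KO, so its RNA in these tables does not separate the genotypes, and the group is named here by its label. In these bulk samples, a different number of cells of a type and a different amount of RNA per cell cannot be told apart.

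Several of the 10 genes moved together after bleomycin, so the promoters of 3 that moved differently are shown, from the RefSeq promoter table of build GRCm38.p6, which is not the build of the authors' reference. Each line holds the 250 bases before the annotated start, written 5′ to 3′ on the gene's strand. Capitals mark the letters ACGTG and GCGTG, the core of the hypoxia response element, or their reverse complements. Slc2a1 is the gene that was lower in libraries labelled CB1R KO than in those of WT bleomycin, Ldha is one of those that rose after bleomycin, and Pfkfb3 is the one that fell.
Slc2a1, chr4:119108495-119108744, plus strand: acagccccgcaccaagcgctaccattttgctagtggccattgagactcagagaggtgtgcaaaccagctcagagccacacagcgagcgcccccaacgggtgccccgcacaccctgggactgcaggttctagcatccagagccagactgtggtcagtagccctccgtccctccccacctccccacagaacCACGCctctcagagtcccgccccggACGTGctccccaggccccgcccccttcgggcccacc
Ldha, chr7:46845554-46845803, plus strand: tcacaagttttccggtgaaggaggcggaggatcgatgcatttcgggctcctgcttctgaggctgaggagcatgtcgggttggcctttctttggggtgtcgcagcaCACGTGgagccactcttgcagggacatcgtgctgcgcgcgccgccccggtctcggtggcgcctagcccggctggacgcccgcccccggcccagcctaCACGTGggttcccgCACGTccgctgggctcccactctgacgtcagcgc
Pfkfb3, chr2:11553930-11554179, minus strand: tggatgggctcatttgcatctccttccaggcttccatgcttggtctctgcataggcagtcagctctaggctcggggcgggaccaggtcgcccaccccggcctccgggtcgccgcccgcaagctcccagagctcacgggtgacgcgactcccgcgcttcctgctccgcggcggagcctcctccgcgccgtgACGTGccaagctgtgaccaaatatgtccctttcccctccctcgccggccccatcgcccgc
All 10 genes had a window in the table, 17 windows in all, each of 300 bases with 50 bases after the start. ACGTG or GCGTG, read on both strands, stood in 15 of the 17 windows and in at least 1 window of each of the 10 genes, and in 43.8% of all 32851 windows of the table. Some windows of Eno1 and of Aldoa overlap and hold the same letters, so the 17 are not independent. ACGTG alone was in 10 of the 17 windows and in 19.6% of all windows, and GCGTG in 9 of 17 and in 32.4% of all. The E-box letters CACGTG, which contain ACGTG, were in 2 of 17, the Ldha window shown here and the other Pfkfb3 window, and in 7.15% of all. The Ldha window shown held 5 matches to ACGTG on either strand, the Slc2a1 window 1 and the Pfkfb3 window shown 1. Each CACGTG counts as 2 matches, since it reads the same on both strands, and the Ldha window shown held 2 of them. The other Ldha window held 0 matches to ACGTG and the other Pfkfb3 window 2, from its 1 CACGTG. The gene that fell and the genes that rose thus both carried these letters. The windows shown are richer in G and C than most, at 65.3%, 67.3% and 69.7% against a median of 52.7% over all windows, and the part of base composition in these counts was not tested.

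In WT lungs 14 days after bleomycin, 7 of the 10 genes were higher than in control, 1 was lower and 2 did not pass the test. Those that rose were Slc2a1 and Hk2 at glucose entry and Gapdh, Pgk1, Eno1, Pkm and Ldha of the later steps. The rise ran from 1.26-fold for Hk2 to 1.78-fold for Eno1. Pfkfb3 fell to 0.632 times its control level and Aldoa stood at 1.02 times. The transporter genes Slc2a3 and Slc2a4, outside the 10, fell, as given below. Of all genes tested, 48.9% were called in this comparison, 25.0% higher and 23.9% lower. The median log2 difference was 0.56 over the 10 genes and -0.01 over all genes tested. Values of WT bleomycin and control libraries did not overlap for 6 of the 10 genes, and for 40.3% of all genes.

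**Figure D1:**
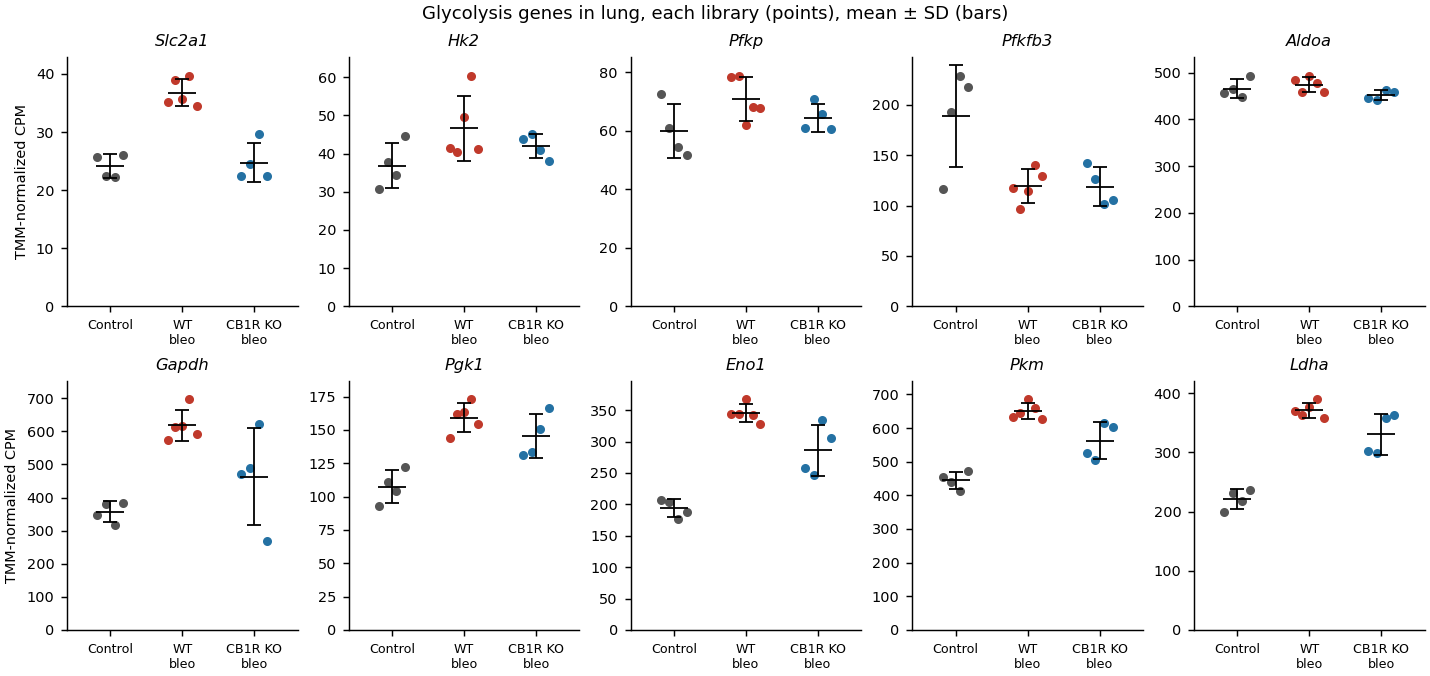
Level of each of the 10 genes (y axis, TMM-normalized CPM, from 0) in each library (points) of the Control (grey), WT bleomycin (red) and CB1R KO bleomycin (blue) groups, with the mean and SD of each group as black bars. Slc2a1, Gapdh, Pgk1, Eno1, Pkm and Ldha of WT bleomycin lie above all control libraries, Pfkfb3 of WT bleomycin lies below 3 of the 4 control libraries, and Aldoa overlaps in the 3 groups.

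Slc2a1 encodes GLUT1, a glucose transporter of the plasma membrane. Its level was 25.7, 22.5, 22.3 and 26.0 CPM in control mice 3, 21, 24 and 26, and 35.2, 38.9, 35.6, 39.7 and 34.6 CPM in WT bleomycin mice 4, 2, 5, 4-B2 and 7. In CB1R KO mice 8, 9, 10 and 11 it was 22.4, 24.5, 29.6 and 22.4 CPM. Every WT bleomycin library was above every other library. Of the 4 libraries labelled CB1R KO, 3 were inside the control range. Mouse 10, at 29.6 CPM, stood between the control and WT bleomycin ranges. WT bleomycin exceeded control 1.52-fold (log2 0.61 ± 0.09 SE, adjusted p = 9.08e-05). Libraries labelled CB1R KO were at 0.671 times WT bleomycin (log2 -0.58 ± 0.09 SE, adjusted p = 0.0177) and differed from control by log2 0.03 ± 0.10 SE (adjusted p = 0.82). The difference from WT bleomycin passed the test in 20 of 26 alternative analyses, and its adjusted p ranged from 6.21e-06 to 0.116. It was lost with CB1R KO mouse 8, 9 or 11 left out (adjusted p = 0.0742, 0.0704 and 0.0627), with a log2 difference of -0.53, -0.57 and -0.52. It was also lost with limma on log2(TPM + 1) and log2(TPM + 0.1) (adjusted p = 0.0668 and 0.0697) and among the libraries whose labels are in lower case (adjusted p = 0.116). Labels of control mouse 26 and WT bleomycin mice 4-B2 and 7 have capitals. All other labels, with every CB1R KO label among them, are in lower case.

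Hk2 encodes hexokinase 2, which phosphorylates glucose and so keeps it in the cell. It was at 30.7, 37.7, 34.3 and 44.7 CPM in control, at 41.4, 40.5, 49.6, 60.4 and 41.2 CPM in WT bleomycin and at 43.8, 45.0, 40.9 and 38.1 CPM in libraries labelled CB1R KO. WT bleomycin mice 5 and 4-B2 were above all controls and the other 3 were inside the control range. The difference from control was log2 0.34 ± 0.13 SE (adjusted p = 0.0407), near the threshold, and it passed in 19 of 26 alternatives. Leaving out control mouse 3, 21 or 24, or WT bleomycin mouse 5 or 4-B2, moved its adjusted p to 0.122, 0.0658, 0.101, 0.0774 and 0.102, and fits of these 2 groups alone gave 0.062 by edgeR and 0.0516 by DESeq2. Libraries labelled CB1R KO differed from WT bleomycin by log2 -0.15 ± 0.13 SE (adjusted p = 0.573) and from control by log2 0.18 ± 0.13 SE (adjusted p = 0.303). Among lower-case labels alone the difference from control was log2 0.29 and passed (adjusted p = 0.0465).

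Pfkp encodes the platelet-type subunit of phosphofructokinase, the committed and regulated step. Control libraries held 72.5, 60.9, 54.4 and 51.7 CPM, WT bleomycin libraries 78.3, 78.9, 61.8, 68.0 and 67.6 CPM, and libraries labelled CB1R KO 60.9, 70.8, 65.9 and 60.5 CPM. The 3 groups overlapped, and mouse 3 was the highest control. WT bleomycin did not pass against control (log2 0.24 ± 0.10 SE, adjusted p = 0.0585), and did so without control mouse 3 (log2 0.35, adjusted p = 0.00712) or WT bleomycin mouse 5 (log2 0.29, adjusted p = 0.0306), and with a term for labels in lower case or capitals (log2 0.27, adjusted p = 0.031).

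Pfkfb3 encodes a bifunctional enzyme that makes fructose 2,6-bisphosphate, an activator of phosphofructokinase. It was the 1 gene of the 10 that fell. Control mice 3, 21, 24 and 26 had 116, 193, 229 and 218 CPM, WT bleomycin mice 117, 96.1, 114, 140.3 and 129 CPM, and mice 8, 9 and 10 labelled CB1R KO 142, 126.3 and 102 CPM, with mouse 11 between mice 9 and 10. Control mouse 3 lay among the bleomycin libraries, and the other 3 controls were above all 9 of them. The log2 difference from control was -0.66 ± 0.17 SE in WT bleomycin (adjusted p = 0.00478) and -0.67 ± 0.18 SE in libraries labelled CB1R KO (adjusted p = 0.00964). Between the 2 bleomycin groups it was -0.01 ± 0.17 SE (adjusted p = 0.984).

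Aldoa encodes aldolase A, which splits fructose 1,6-bisphosphate into trioses. Control libraries ranged from 447 to 494 CPM, WT bleomycin libraries from 458 to 493 CPM and libraries labelled CB1R KO from 442 to 464 CPM. The 3 groups overlapped, and the standard errors were the smallest of the 10 genes. The difference was log2 0.03 ± 0.05 SE for WT bleomycin with control (adjusted p = 0.683) and -0.07 ± 0.05 SE between the bleomycin groups (adjusted p = 0.524). Aldoa was the most abundant of the 10 per transcript length in control, at 534 TPM ± 16.5 (SD, n = 4).

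Gapdh encodes glyceraldehyde 3-phosphate dehydrogenase, the step that reduces NAD+, and is often used as a reference gene. It was at 347, 381, 317 and 384 CPM in control, at 575, 613, 615, 697 and 593 CPM in WT bleomycin, and at 471, 490, 622 and 268 CPM in mice 8, 9, 10 and 11 labelled CB1R KO. All WT bleomycin libraries exceeded all controls, 1.73-fold on average (log2 0.79 ± 0.17 SE, adjusted p = 0.0014). The libraries labelled CB1R KO spread over the whole range: mouse 10 was inside WT bleomycin, mice 8 and 9 stood between the groups, and mouse 11, the most deeply sequenced library, lay below every control. They differed from WT bleomycin by log2 -0.42 ± 0.17 SE (adjusted p = 0.219) and from control by log2 0.37 ± 0.18 SE (adjusted p = 0.113). The difference from WT bleomycin was log2 -0.23 without mouse 11 and -0.59 without mouse 10, and passed in neither case. Without mouse 11 the difference from control was log2 0.57 and passed the test (adjusted p = 0.00113).

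Pgk1 encodes phosphoglycerate kinase 1, the first step that returns ATP. Control libraries held 93.0, 111, 104 and 122 CPM, WT bleomycin libraries 144, 162, 163, 173 and 154 CPM, and libraries labelled CB1R KO 131, 134, 151 and 167 CPM. Both bleomycin groups were above all controls and overlapped with each other. The difference from control was log2 0.57 ± 0.09 SE in WT bleomycin (adjusted p = 0.000128) and 0.44 ± 0.09 SE in libraries labelled CB1R KO (adjusted p = 0.00242).

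Eno1 encodes enolase 1, which makes phosphoenolpyruvate, and rose most of the 10 genes. It was at 206, 204, 176 and 188 CPM in control, 344, 344, 368, 343 and 329 CPM in WT bleomycin, and 258, 247, 334 and 305 CPM in libraries labelled CB1R KO. All bleomycin libraries were above all controls, and mice 8, 9 and 11 labelled CB1R KO were below all WT bleomycin mice. WT bleomycin exceeded control by log2 0.83 ± 0.09 SE (adjusted p = 3.07e-06) and libraries labelled CB1R KO did so by 0.56 ± 0.09 SE (adjusted p = 0.000282). Between the bleomycin groups the difference was log2 -0.27 ± 0.08 SE and did not pass over all genes (adjusted p = 0.133). Without CB1R KO mouse 10 it was log2 -0.35 and passed (adjusted p = 0.0248).

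Pkm encodes the pyruvate kinase of most tissues, whose M1 and M2 isoforms are summed in these tables. Control libraries held 453, 439, 414 and 472 CPM, WT bleomycin libraries 634, 644, 686, 661 and 628 CPM, and libraries labelled CB1R KO 525, 506, 615 and 603 CPM. The 3 groups did not overlap, with the libraries labelled CB1R KO in the middle. WT bleomycin was above control by log2 0.55 ± 0.07 SE (adjusted p = 1.86e-05), and libraries labelled CB1R KO by 0.34 ± 0.07 SE (adjusted p = 0.00249). Although the 4 libraries labelled CB1R KO were all below the 5 WT bleomycin libraries, the difference of log2 -0.21 ± 0.07 SE did not pass (adjusted p = 0.148).

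Ldha encodes lactate dehydrogenase A, the subunit that favours the making of lactate. It was at 199, 231, 217 and 236 CPM in control, 370, 363, 376, 390 and 358 CPM in WT bleomycin, and 303, 299, 357 and 363 CPM in libraries labelled CB1R KO. Both bleomycin groups were above all controls, and mice 8 and 9 labelled CB1R KO were the lowest of the 9 bleomycin mice. The log2 difference from control was 0.75 ± 0.07 SE in WT bleomycin, with the lowest adjusted p of the 10 genes (2.09e-06), and 0.58 ± 0.08 SE in libraries labelled CB1R KO (adjusted p = 6.37e-05).

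Of the 10 genes, Slc2a1 was the 1 called between libraries labelled CB1R KO and WT bleomycin, where 0.979% of all genes were called and 0.620% were called lower. All 10 fitted differences were below 0, from -0.58 for Slc2a1 to -0.01 for Pfkfb3, with a median log2 difference of -0.16 against 0.00 over all genes tested. The 10 differences come from the same 9 libraries and are not independent. Slc2a1 and Pkm were the 2 of 10 genes without overlap between these groups, as were 5.60% of all genes. An unadjusted p under 0.05 was found for 5 of the 10, Slc2a1, Gapdh, Eno1, Pkm and Ldha.

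Against control, libraries labelled CB1R KO had 5 of the 10 genes called, Pgk1, Eno1, Pkm and Ldha higher and Pfkfb3 lower, where 35.4% of all genes were called and 19.0% were called higher. The 4 higher genes were also those without overlap with control, as were 33.5% of all genes. The median log2 difference was 0.26 over the 10 genes and -0.01 over all genes. Both comparisons with control share the same 4 control libraries, and both comparisons of WT bleomycin share its 5 libraries, so the 3 sets of differences are not independent of each other.

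**Figure D2:**
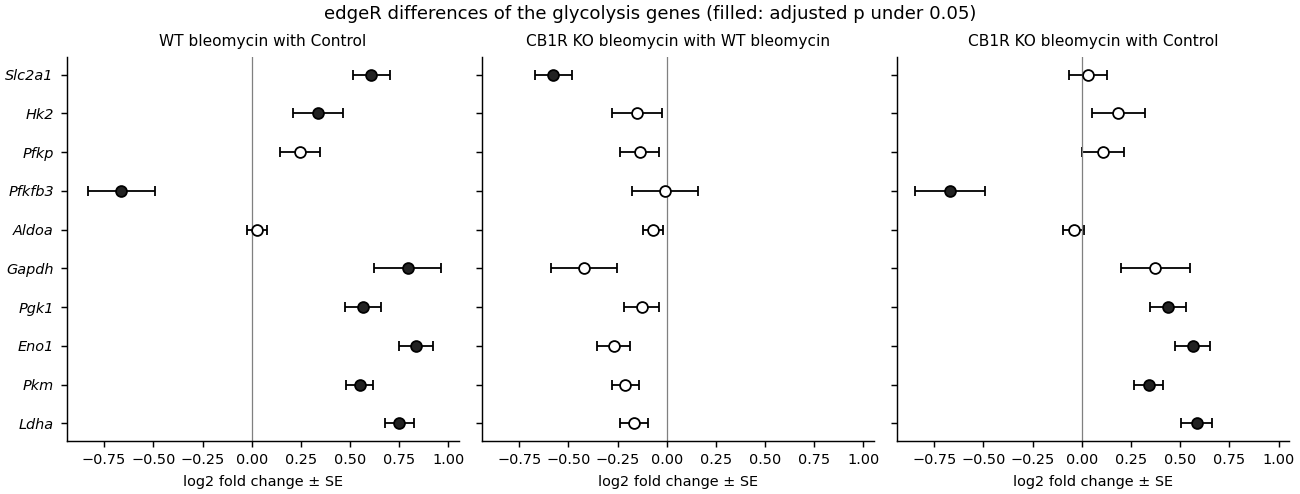
Log2 fold change (x axis) of the 10 genes in pathway order (y axis) in the 3 comparisons. Bars are SE, derived from the log2 difference and edgeR's F statistic. Points are filled where the adjusted p was under 0.05. Of the 10 points, 8 are filled for WT bleomycin with Control, 1 (Slc2a1) for CB1R KO with WT bleomycin and 5 for CB1R KO with Control.

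The levels per transcript length spanned about the same order in each group. In control they ran from Aldoa at 534 TPM through Gapdh at 410.0 TPM, Pkm at 293 TPM, Ldha at 226 TPM, Eno1 at 149.8 TPM, Pgk1 at 92.2 TPM, Pfkfb3 at 62.8 TPM and Pfkp at 31.0 TPM to Slc2a1 at 11.5 TPM and Hk2 at 9.77 TPM. Neighbours in this order did not overlap between libraries, except Slc2a1 and Hk2. In WT bleomycin, Gapdh (728 TPM ± 40.5 SD, n = 5) stood above Aldoa (552 TPM ± 28.6 SD) in every library, and Pfkfb3 and Pfkp overlapped, at 40.6 and 38.4 TPM. In libraries labelled CB1R KO, Gapdh with Aldoa, Pkm with Ldha, Pfkfb3 with Pfkp and Slc2a1 with Hk2 overlapped. Slc2a1 and Hk2, at the entry to the pathway, were the least abundant of the 10 in all 3 groups. Hk1, a hexokinase gene outside the 10, had means of 38.4, 46.0 and 47.4 TPM in control, WT bleomycin and libraries labelled CB1R KO.

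Summed over the 10 genes, control libraries held 1809, 1859, 1727 and 1883 TPM, WT bleomycin libraries 2660.0, 2657, 2662, 2667 and 2495 TPM, and libraries labelled CB1R KO 2281, 2224, 2623 and 2193 TPM. The sum was higher in every bleomycin library than in every control. Mouse 10 labelled CB1R KO lay inside the WT bleomycin range and the other 3 between the groups. Mouse 11 had the lowest Gapdh of all libraries, while its Pgk1 and Ldha CPM were the highest of its group.

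Glycolytic enzymes come as isozymes of different genes, so the share of each gene in its family was computed within each library, where scaling between libraries plays no part. Ldha made up 54.3%, 60.5%, 58.0% and 58.5% of Ldha and Ldhb together in control, 77.2%, 77.4%, 76.8%, 77.3% and 78.6% in WT bleomycin and 73.5%, 69.7%, 74.6% and 73.6% in libraries labelled CB1R KO. The 3 groups did not overlap, and the WT bleomycin libraries lay within 2 percentage points of each other. The mean share rose by 19.7 percentage points from control to WT bleomycin (57.8% to 77.5%, two-sided exact permutation p = 0.00794, adjusted p = 0.0357 over 18 tests, higher in 5 of 5 libraries). It was lower by 4.64 points in libraries labelled CB1R KO than in those of WT bleomycin (exact permutation p = 0.00794, adjusted p = 0.0357, lower in 4 of 4). Among lower-case labels alone, which leave out control mouse 26 and WT bleomycin mice 4-B2 and 7, the differences were 19.5 and -4.31 points. Neither passed (adjusted p = 0.2 and 0.103 by the same test). For WT bleomycin with control, so few libraries cannot give a permutation p under the threshold, whatever their shares. Ldhb, the subunit that favours pyruvate, fell by 0.57 on the log2 scale in WT bleomycin (SE 0.07, adjusted p = 1.23e-05), so the shift joins a rise of one gene with a fall of the other.

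Slc2a1 was set against Slc2a3 alone, which encodes the high-affinity transporter GLUT3. Slc2a4, Slc2a6 and Slc2a8 were left out, so the share is of this pair and not of all glucose transporter genes. Slc2a8 had means of 10.0, 11.2 and 10.8 TPM in control, WT bleomycin and libraries labelled CB1R KO, against 11.5, 17.5 and 12.2 TPM for Slc2a1. The share of Slc2a1 in the pair was 44.6%, 58.2%, 62.2% and 55.2% in control. It was 74.0%, 79.3%, 78.3%, 80.1% and 76.7% in WT bleomycin and 68.7%, 70.1%, 69.7% and 65.9% in libraries labelled CB1R KO. Again the 3 groups did not overlap, and control mouse 3 had the lowest share. The mean rose by 22.6 points after bleomycin in WT mice and was lower by 9.10 points in libraries labelled CB1R KO than in those of WT bleomycin (exact permutation p = 0.00794 and adjusted p = 0.0357 for both). Among lower-case labels alone these were 22.2 and -8.62 points and did not pass (adjusted p = 0.2 and 0.103). The comparison of WT bleomycin with control could not pass there, for the same reason as for Ldha. Slc2a3 fell by 1.16 on the log2 scale in WT bleomycin (SE 0.18, adjusted p = 9.33e-05), from 16.7 to 34.8 CPM in control to 9.48 to 12.8 CPM. The summed TPM of Slc2a1 and Slc2a3 was 16.3 to 30.4 in control and 21.0 to 23.6 in WT bleomycin, with overlap. A p of 0.00794 is the smallest that 4 against 5 libraries can give. Neutrophils are known for GLUT3, and 4 of the 5 tested neutrophil markers fell in WT bleomycin, with summed levels of 128 to 589 CPM in control, 76.0 to 135 CPM in WT bleomycin and 92.6 to 187 CPM in libraries labelled CB1R KO. Control mouse 3 had both the highest neutrophil sum, 589 CPM, and the highest Slc2a3, 34.8 CPM. Control mouse 26 had a neutrophil sum of 511 CPM, with Slc2a3 at 44.8% of the pair against 55.4% in mouse 3. Among libraries labelled CB1R KO, mouse 9 had the highest neutrophil sum, 187 CPM, and the lowest share of Slc2a3, 29.9%. The part of neutrophils in these shares was not tested.

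Libraries labelled CB1R KO had higher shares than control of Ldha, by 15.0 points, and of Slc2a1, by 13.5 points, without overlap, at the smallest exact permutation p that 4 against 4 libraries allow, 0.0286, and did not pass after adjustment over the 18 tests (adjusted p = 0.0571 for both). The share of Pfkfb3 in the Pfkfb family was 65.0% ± 3.65 (SD, n = 4) in control. It was 55.2% ± 3.64 (SD, n = 5) after bleomycin in WT mice and 53.02% ± 3.04 (SD, n = 4) in libraries labelled CB1R KO. Both bleomycin groups were below all controls and neither passed (adjusted p = 0.0571 for both by the exact permutation test). Pfkp took 35.6%, 42.7% and 38.6% of the phosphofructokinase genes in the 3 groups, and Hk2 took 18.4%, 19.4% and 17.7% of the hexokinase genes, with overlap. Aldoa took 98.6%, 98.0% and 98.1% of aldolase, so the family was Aldoa alone in practice. In all, 2 of the 6 shares passed for WT bleomycin with control, the same number for CB1R KO with WT bleomycin and 0 for CB1R KO with control, where 3 of 6 had an unadjusted p under 0.05.

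**Figure D3:**
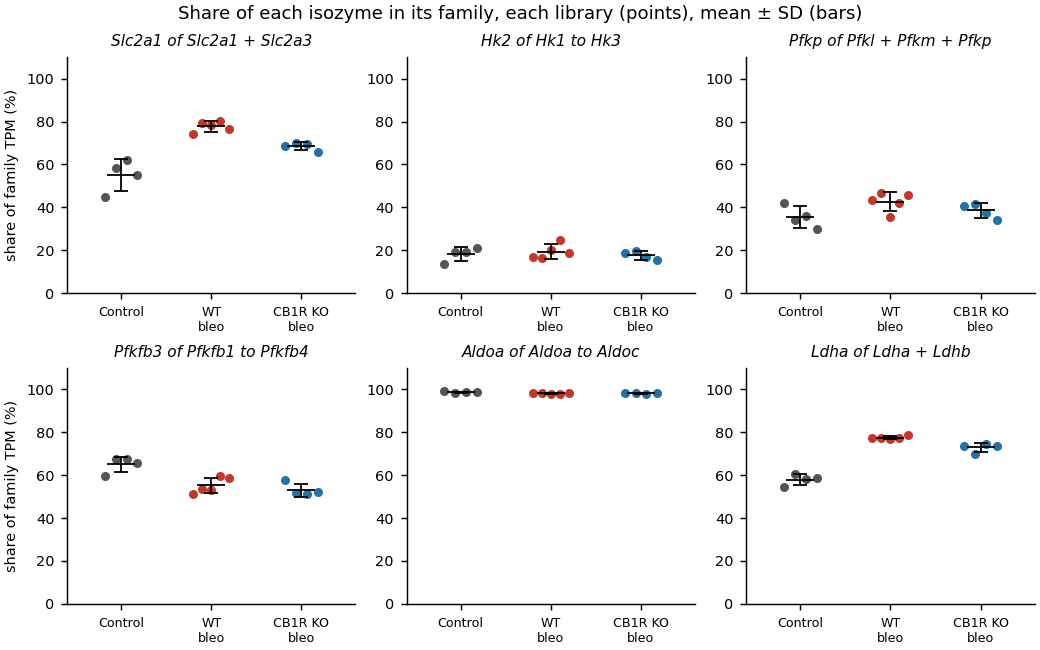
Share of a gene in the summed TPM of its isozyme family (y axis, percent from 0) in each library (points) of the 3 groups, with mean and SD as black bars. For Slc2a1 the share is of Slc2a1 and Slc2a3 alone. For Ldha and Slc2a1 the 3 groups do not overlap, with Control lowest and WT bleomycin highest, and Aldoa is near all of its family in every library.

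Of 24 further glycolysis genes, 23 were tested: 5 rose in WT bleomycin, 6 fell and 12 did not pass. These shares are near those over all genes, of which 25.0% were called higher and 23.9% lower. The median log2 difference was 0.12 against -0.01 over all genes. The genes that rose were Pgam1 (phosphoglycerate mutase, log2 0.72 ± 0.07 SE, adjusted p = 1.79e-06), Tpi1 (triosephosphate isomerase, 0.39 ± 0.07 SE), Hk1 (0.19 ± 0.06 SE), Aldoc (0.57 ± 0.18 SE) and Pklr (1.87 ± 0.52 SE, at no more than 1.73 CPM in any library). Pgam1 was at 93.9 to 102 CPM in control, 154 to 182 CPM in WT bleomycin and 133 to 163 CPM in libraries labelled CB1R KO. The genes that fell were Slc2a3, Ldhb, Slc2a4 (the insulin-responsive transporter GLUT4, log2 -1.31 ± 0.31 SE), Pfkm (muscle phosphofructokinase, -0.61 ± 0.09 SE), Pgam2 (muscle phosphoglycerate mutase, -0.72 ± 0.26 SE) and Eno3 (muscle enolase, -1.18 ± 0.15 SE). Of the 7 tested markers of striated and cardiac muscle, 7 fell as well, and their summed level was 659 to 1696 CPM in control, 107 to 438 CPM in WT bleomycin and 449 to 796 CPM in libraries labelled CB1R KO. The part of muscle tissue in the fall of Slc2a4, Pfkm, Pgam2 and Eno3 was not tested. None of the 23 was called between libraries labelled CB1R KO and WT bleomycin by edgeR, where 5 had an unadjusted p under 0.05, and 3 were higher and 4 lower than control.

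**Figure D4:**
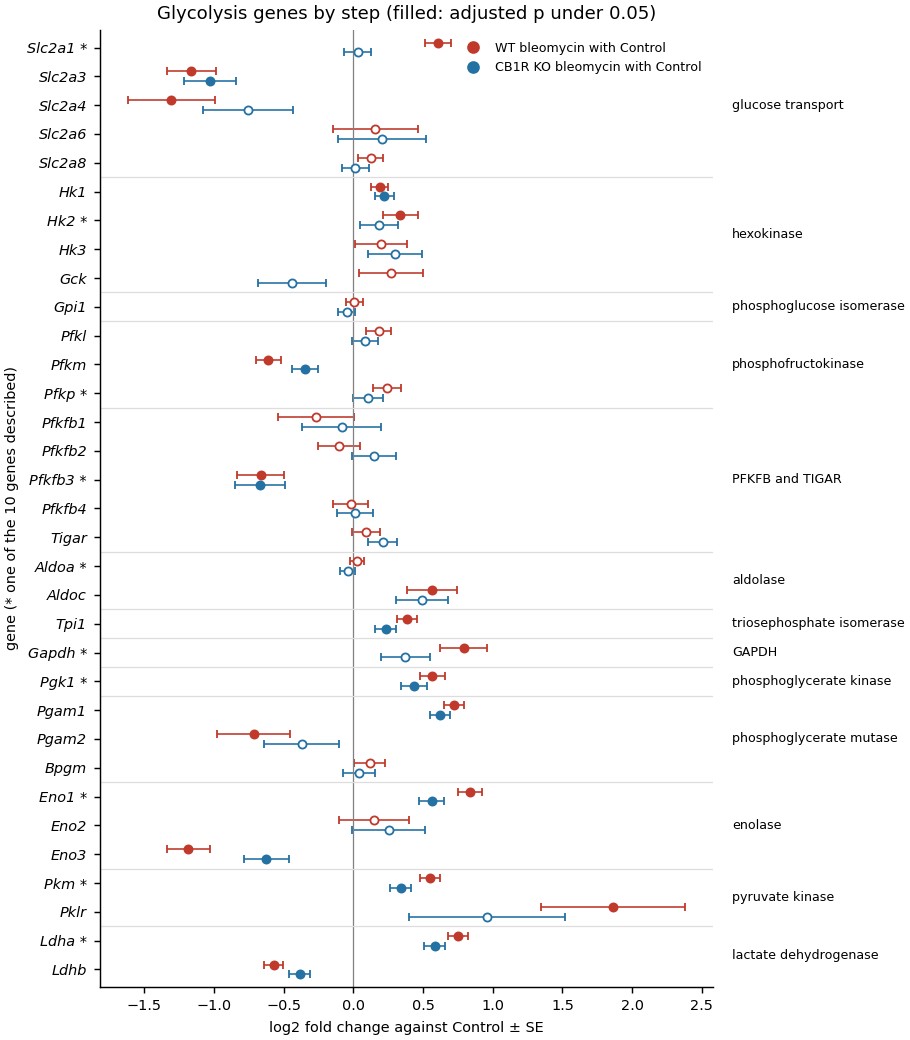
Log2 fold change against Control (x axis, bars are SE) of the glycolysis genes tested, in pathway order from top to bottom with the step at the right, for WT bleomycin (red) and CB1R KO bleomycin (blue). Filled points passed at an adjusted p under 0.05. From GAPDH to lactate dehydrogenase the main genes Gapdh, Pgk1, Pgam1, Eno1, Pkm and Ldha lie right of 0 in both, while Eno3, Pgam2 and Ldhb lie left of it.

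Beyond lactate, 14 genes of lactate export and of pyruvate entry into mitochondria held 2 that rose in WT bleomycin and 5 that fell, about the share called over all genes, 48.9%. Bsg, the chaperone of the lactate transporters, rose by log2 0.21 ± 0.07 SE, while the transporter genes Slc16a1 (log2 0.20 ± 0.11 SE) and Slc16a3 (0.14 ± 0.19 SE) did not pass, and Slc16a7 fell by 0.92 (SE 0.13). The kinases that inhibit pyruvate dehydrogenase went both ways: Pdk1 fell by 0.84 (SE 0.07, adjusted p = 8.2e-07) and Pdk2 by 0.95 (SE 0.10) on the log2 scale, while Pdk3 rose by 0.41 (SE 0.08). Pdha1, a subunit of pyruvate dehydrogenase, fell by 0.15 (SE 0.06) and Pdp1, its phosphatase, by 0.23 (SE 0.08). Of 7 pentose phosphate genes, 4 rose and none fell, where 25.0% of all genes were called higher: G6pdx (log2 0.34 ± 0.07 SE), Pgls (0.38 ± 0.13 SE), Pgd (0.60 ± 0.08 SE) and Taldo1 (0.33 ± 0.09 SE). Pgd was at 122 to 140.3 CPM in control, 182 to 219 CPM in WT bleomycin and 183 to 228 CPM in libraries labelled CB1R KO, so the last 2 groups overlapped. Of 6 gluconeogenesis genes, 4 were tested and Pcx, pyruvate carboxylase, rose (log2 0.36 ± 0.11 SE). None of these 25 tested genes was called between libraries labelled CB1R KO and WT bleomycin by edgeR, and 2 had an unadjusted p under 0.05.

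Of 18 genes of the hypoxia response outside glycolysis, 5 rose in WT bleomycin and 9 fell, with a median log2 difference of -0.04. Over all genes 25.0% were called higher, near the share of this list, and 23.9% lower. Hif1a, the oxygen-regulated subunit that drives many glycolysis genes, rose by log2 0.85 ± 0.09 SE (adjusted p = 6.72e-06), from 88.6 to 106 CPM in control to 162 to 193 CPM, and was at 123 to 174 CPM in libraries labelled CB1R KO. Ankrd37 (2.12 ± 0.33 SE), Adm (0.87 ± 0.32 SE), Ndrg1 (0.80 ± 0.11 SE) and Car9 (0.69 ± 0.20 SE) rose with it. Epas1, which encodes HIF-2 alpha and is abundant in endothelium, fell by 1.01 on the log2 scale (SE 0.10), and Vegfa by 0.54 (SE 0.07), Bnip3 by 0.55 (SE 0.11), Mxi1 by 0.55 (SE 0.08), Egln1 by 0.45 (SE 0.05), Bnip3l by 0.41 (SE 0.05), Kdm3a by 0.39 (SE 0.06), P4ha1 by 0.28 (SE 0.10) and Arnt by 0.25 (SE 0.06). Between libraries labelled CB1R KO and WT bleomycin none of the 18 was called by edgeR, with 7 at an unadjusted p under 0.05. Against control, libraries labelled CB1R KO had 6 of them higher and 8 lower. Endothelial markers fell as well, 6 of 6 in WT bleomycin, from a summed 3677 to 4485 CPM in control to 2436 to 2822 CPM. Type II cell markers fell in 5 of 6. The part of these cell types in the fall of Epas1 and Vegfa was not tested.

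Markers of other cell types moved in the same libraries as the glycolysis genes, and their counts stand beside 25.0% of all genes called higher and 23.9% called lower in WT bleomycin. In WT bleomycin 8 of 8 markers of cycling cells rose, with a summed level of 123 to 152 CPM in control, 355 to 495 CPM in WT bleomycin and 257 to 522 CPM in libraries labelled CB1R KO. Of 10 macrophage markers 9 rose, with sums of 5238 to 6114, 7667 to 9960.0 and 9879 to 10680 CPM in the 3 groups. Fibroblast and myofibroblast markers rose in 5 of 8, with sums of 1890.0 to 2196, 5389 to 7518 and 4117 to 6002 CPM. Type II cell markers fell in 5 of 6 in WT bleomycin and 3 of 6 were higher in libraries labelled CB1R KO than in those of WT bleomycin, with sums of 18630 to 22100, 11600 to 13250 and 13480 to 21280 CPM. None of the markers of these 4 lists was at 0 in every library of a group. Between libraries labelled CB1R KO and WT bleomycin, 0 of 10 macrophage markers were called by edgeR, 5 had an unadjusted p under 0.05, and 8 of the 10 were fitted below 0, with a median log2 difference of -0.10. The sums of 3 of the 4 libraries were nevertheless above every WT bleomycin library. Lyz2, a lysozyme gene that type II cells express too, was the most abundant of the list, at 5853 CPM ± 806 (SD, n = 5) in WT bleomycin and 7823 CPM ± 489 (SD, n = 4) in libraries labelled CB1R KO. Among libraries labelled CB1R KO, mouse 10 had the highest Slc2a1, Gapdh, Eno1 and Pkm, the highest fibroblast sum, 6002 CPM, and the lowest type II sum, 13480 CPM. Mice 8 and 9 had fibroblast sums of 4117 and 4119 CPM and lower Pgk1, Eno1, Pkm and Ldha than mice 10 and 11. Mouse 11 had a fibroblast sum of 5730 CPM and a type II sum of 20120 CPM. Its Gapdh, 268 CPM, was the lowest of the group, and its Slc2a1 was 22.4 CPM. The part of these cell types in the levels of the glycolysis genes was not tested.

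The remaining marker lists fell or were mixed in WT bleomycin. Lymphocyte markers fell in 5 of 8, red blood cell markers in 5 of 5 and adipocyte markers in 3 of 5 tested, alveolar macrophage markers in 1 of 6, and type I cell markers fell in 2 and rose in 1 of 6.

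Genes whose level moved most like the median of the 10 were Syngr2, Prelid1, Rrbp1, Arpc3 and Eif5a. Likeness was the root-mean-square difference, over the 13 libraries, of log2 CPM minus the control mean, and it was 0.07, 0.09, 0.09, 0.10 and 0.10 for these 5 genes. The median of the 10 genes itself stood at -0.10 to 0.11 in control libraries, 0.47 to 0.71 in WT bleomycin and 0.04 to 0.39 in libraries labelled CB1R KO, with mouse 11 lowest. Copies of these genes elsewhere in the genome could share reads with them. Of 11 such copies listed, 9 were in the tables, 1 of them, Gapdhs, passed the filter, and their summed level was at most 5.53 CPM in any library, against 2000.0 CPM or more for the 10 genes. Copies that are not protein-coding are outside these tables, so the sum does not show how many reads are shared.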

How the data were processed

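Per the labels and the study's methods, poly(A) libraries (NEBNext Ultra II) were sequenced as paired ends, and the authors quantified them with Kallisto on the Ensembl mouse reference (GRCm39) and added up estimated counts and TPM per gene across its protein-coding transcripts. The deposited estimated counts are not normalized, and 70.5% are not whole; the deposited TPM are scaled for length and total. The 13 single-sample files repeat these tables. In the deposited TPM, 1 further column, named as wildtype with bleomycin but matching no sample, was not used.

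Estimated counts were rounded, filtered with filterByExpr, scaled by TMM and tested with edgeR 4.0.16 (quasi-likelihood, R 4.3.3) over 15315 genes in 3 groups, with Benjamini-Hochberg adjustment and a threshold of 0.05. For log2 CPM the prior count was 2. The SE of a log2 difference was derived as its absolute value divided by the square root of the quasi-likelihood F statistic. Isozyme shares of TPM were compared by two-sided exact permutation tests, adjusted over 18. Python 3.11.15, pandas 2.3.3, numpy 2.4.6 and matplotlib 3.10.9 were used. Procedures were tested on simulated data.

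The 10 genes and all lists were chosen with earlier results of these data known. Named were the 10 genes, members of the fixed pathway lists past the threshold, and the 5 genes of most similar profile. Replicates are single mice, and their number limits precision. Alternatives were other filters and scalings, DESeq2 1.42.0, limma 3.58.1 on log2 TPM, edgeR fitted to only the 2 groups compared, a term for whether a label was in lower case or capitals, lower-case labels alone, thinning of CB1R KO mouse 11, shares of counts, and each library left out.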

Additional observations from a re-analysis of the deposited data

Results flagged for a closer look

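Of 102 groups of values checked, 7 held a library whose gap to its nearest neighbour was large for the range of its group by Dixon's test, and chance alone marks about 1 group in 20. None was a CPM value of the 10 genes. In WT bleomycin, the summed TPM of the 10 genes was 2495.0 in mouse 7 and 2657 to 2667 in the other 4 mice, and Pgam1 was 181.5 CPM in mouse 4-B2 and 154 to 162 CPM in the others. Among libraries labelled CB1R KO, the share of Pfkfb3 in its family was 57.55% in mouse 8 and 51.03% to 52.0% in the others, and that of Aldoa was 97.61% in mouse 10 and 98.21% to 98.33% in the others. Among controls, Pgd was 122.1 CPM in mouse 24 and 138 to 140.3 CPM in the others. The summed alveolar macrophage markers were 1884 CPM in control mouse 21 and 673 to 772 CPM in the other 3, and the summed type II cell markers were 18630 CPM in control mouse 3 and 21900 to 22100 CPM in the other 3.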

How the results depend on the processing

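Over 26 alternatives, Slc2a1, Pfkfb3, Gapdh, Pgk1, Eno1, Pkm and Ldha kept their direction and their call in WT bleomycin with control, as Pgk1, Eno1, Pkm, Ldha and Pfkfb3 did in CB1R KO with control, while Hk2 lost its call against control in 7. The count of the 10 genes called between CB1R KO and WT bleomycin went from 1 to 0 with limma on log2(TPM + 1), limma on log2(TPM + 0.1) and lower-case labels alone, and lay between 0 and 2 with 1 library left out, 2 being Slc2a1 and Eno1 without CB1R KO mouse 10. Over all genes that comparison gave 150 calls by edgeR, 640 by DESeq2, 25 by limma on log2(TPM + 1) and 1 on log2(TPM + 0.1), 41 with the label style as a term, 6 on lower-case labels alone, and from 1 without CB1R KO mouse 9 to 653 without mouse 10. Isozyme shares called fell from 2 to 0 in both comparisons with WT bleomycin on lower-case labels alone and stayed at 0 with any 1 library left out, since the smaller groups raise the smallest p of their own tests and the adjustment runs jointly over all 18; the differences of Ldha and Slc2a1 kept their sign. In WT bleomycin with control 3834 genes were higher and 3658 lower by edgeR, against 4120 and 2778 by limma on log2(TPM + 1); in CB1R KO with control these were 2911 and 2504 against 3431 and 1407.

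Changes of sign touched only differences that were not called, and the cause was not tested. For Pfkfb3 in CB1R KO with WT bleomycin, the log2 difference became 0.001 without a count filter, 0.056, 0.057 and 0.056 with limma (pseudocount 1, 0.1, and 1 on genes of mean TPM at least 1), 0.117 with the label style and 0.120 on lower-case labels, and ran from -0.106 to 0.060 with 1 library left out. For Aldoa it became 0.023 in CB1R KO with WT bleomycin and 0.072 in CB1R KO with control under the 3 limma settings. Slc2a1 in CB1R KO with control ran from -0.058 to 0.088 with 1 library left out. On lower-case labels the share of Pfkfb3 in CB1R KO with WT bleomycin became 0.394 points and that of Hk2 in CB1R KO with control 0.186 points. With 1 library left out, the share of Hk2 ran from -0.479 to 1.95 points in WT bleomycin with control and from -2.25 to 0.186 points in CB1R KO with control, and that of Aldoa from -0.0298 to 0.212 points in CB1R KO with WT bleomycin. No paired analysis was possible because the groups share no replicate numbers. Depth limits none of the 10 genes, whose lowest estimated count was 343.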
